A study of Homo sapiens with 6 samples.

Results

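Described here are 8 genes around the FOXO transcription factors in human fibroblasts treated with forskolin: the factor genes FOXO1, FOXO3 and FOXO4, the reported targets DEPP1, TXNIP and SESN3, and PIK3IP1 and IRS2, which act on the PI3K pathway upstream and are themselves reported targets. They were chosen by gene name, and 8 of 8 were found among the 60843 genes of the deposited count table and passed the filter on low counts. Since earlier results of these libraries were in view when the genes were chosen, their values are a description. Adjusted p-values printed for them come from the fit over all genes and are no independent test.

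The data are RNA sequencing of BJ cells, a human foreskin fibroblast line, with genotype WT throughout and 2 libraries on each of 3 days. At day 0 the cells were fibroblasts in serum medium on poly-D-lysine dishes. Cells of day 2, labelled FiN and induced neuron, had received neuronal induction medium with 10 µM forskolin, and those of day 5 neuronal maturation medium with 10 µM forskolin. Forskolin activates adenylyl cyclase and so raises cAMP. No culture given these media without forskolin was analysed here, so time, medium and drug cannot be told apart. Whether replicate libraries were separate cultures is not stated, so a p-value here reflects library-to-library spread that may be purely technical.

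Libraries held 17605858 to 27953926 estimated counts. Levels are counts per 1e6 counts (CPM) after scaling by TMM factors, and 3 counts correspond to 0.103 to 0.18 CPM. All 10 fibroblast markers examined exceeded 1 CPM in each library and summed to 15911 to 29614 CPM, a sum made up largely of collagens and VIM. Single fibroblast markers moved in opposite directions from day 0 to day 5: PDGFRA went from 340.3 and 327 to 2671 and 2607 CPM and COL1A2 from 4992 and 5107 to 14184 and 14445 CPM, while VIM went from 4841 and 4853 to 1456 and 1473 CPM and S100A4 from 39.7 and 39.6 to 2.1 and 2.62 CPM. Of 14 neuronal markers, TUBB3, SYN1, SNAP25 and SYT1 exceeded 1 CPM in each library, whereas STMN2, ELAVL4 and NEUROD1 had 0 counts throughout. The sum of all 14 was lower on the days labelled as induced neurons, with 252 and 260.4 CPM (day 0), 155 and 162 CPM (day 2), then 111 and 115 CPM (day 5), and most of it was TUBB3, with 223 and 229, 137 and 143, then 87.1 and 87.6 CPM. SNAP25 went the other way, to 16.8 and 19.7 CPM on day 5 from 5.75 and 6.01 CPM on day 0, and SYN1 was highest on day 2, with 3.16 and 2.79 CPM against 1.66 and 1.72 CPM on day 0. Keratinocyte and epithelial markers summed to at most 0.6 CPM, with 4 of 6 at 0. The endothelial receptor gene KDR had 3.71 and 4.6 CPM at first but 63.3 and 60.1 CPM by day 5, while CDH5 stayed at or below 0.0394 CPM. TEK, of the same list, had 68.9 to 79.02 CPM over the libraries. CD68 of the leukocyte list had 45.02 to 128.02 CPM, and MITF of the melanocyte list 9.76 to 46.4 CPM. Glial markers summed to 8.42 to 21.9 CPM. The part of these markers in the results was not tested. In bulk libraries, fewer cells expressing a gene and less RNA per cell cannot be told apart.

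FOXO proteins are forkhead transcription factors that couple growth factor supply to gene expression. When insulin or growth factors activate PI3K, the kinase AKT phosphorylates FOXO proteins and they are retained in the cytoplasm; when PI3K activity is low they enter the nucleus and activate genes of cell cycle arrest, antioxidant defence, autophagy and fuel use. This control acts on the protein, which RNA levels do not report. Some targets feed back on the pathway: IRS2 is an adaptor that links the insulin and IGF receptors to PI3K, PIK3IP1 is a membrane protein that inhibits PI3K, and SESN3 is a sestrin that restrains the growth kinase complex mTORC1.

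The core element bound by FOXO proteins was searched as GTAAACA, on both strands, in RefSeq promoter windows (build GRCh38.p14) from 250 bases before to 50 bases after each gene start. It was found in 4 of the 8 genes and in 4.19% of 27305 genes with a window. Of the other reported FOXO targets described further below, 4 of 28 with a window held it (BCL2L11, BTG1, MXI1 and SELENOP). DEPP1 held it 180 to 174 bases and TXNIP 124 to 118 bases before the start. In FOXO4 and, as the reverse complement, in PIK3IP1 it lay after the RefSeq start, at bases 24 to 30 and 17 to 23. The FOXO4 match, at 71095874 to 71095880 of chromosome X, lies before the GENCODE start of FOXO4 given further below (71096197). For FOXO4 its place relative to the start therefore depends on the annotation. The insulin response element, searched as CAAAACA on both strands, was found in IRS2 and in 6.05% of all genes with a window. The cAMP response element, searched as TGACGTCA on both strands, was found in 0 of the 8 genes and in 2.25% of genes. No match given here overlaps another. TXNIP also held a pair of CACGAG elements 5 bases apart, of the kind through which the glucose-sensing factors MondoA and ChREBP act; this pattern was chosen after the sequence was seen and was present in 2 of all genes with a window. A match describes the letters only.

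The upstream stretches of DEPP1, TXNIP and IRS2 that hold these matches are given because DEPP1 and TXNIP had the widest ranges between days and IRS2 took another course. They are chr10:44978811-44979059 for DEPP1, chr1:145996601-145996829 for TXNIP and chr13:109786604-109786663 for IRS2 (RefSeq, GRCh38.p14), all on the minus strand, which is the strand of each gene, and none overlaps an annotated exon. Each runs 5′ to 3′, with capitals for GTAAACA in DEPP1 and TXNIP, for the CACGAG pair in TXNIP, and for the reverse complement of CAAAACA in IRS2.
DEPP1: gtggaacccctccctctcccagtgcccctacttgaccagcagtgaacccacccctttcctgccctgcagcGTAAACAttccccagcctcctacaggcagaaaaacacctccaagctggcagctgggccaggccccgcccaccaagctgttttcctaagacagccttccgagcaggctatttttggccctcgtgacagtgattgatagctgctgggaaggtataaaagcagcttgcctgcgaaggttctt
TXNIP: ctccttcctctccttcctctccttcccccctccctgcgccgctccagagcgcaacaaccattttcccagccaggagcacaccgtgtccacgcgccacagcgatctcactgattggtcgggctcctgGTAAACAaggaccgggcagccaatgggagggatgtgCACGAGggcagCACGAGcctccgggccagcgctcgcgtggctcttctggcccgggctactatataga
IRS2: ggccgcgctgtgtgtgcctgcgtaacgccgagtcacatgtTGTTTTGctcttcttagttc

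The FOXO genes themselves differed in level and course: FOXO3 was highest at day 2, FOXO4 at day 5, and FOXO1 was near the detection limit throughout. FOXO3 (ENSG00000118689; chromosome 6, 108559835 to 108684774, GRCh38 as for all genes here) had 45.8 and 47.2 CPM in the day 0 libraries, 76.1 and 77.1 CPM in those of day 2 and 59.8 and 60.6 CPM in those of day 5. The days did not overlap. Its log2 fold change was 0.72 ± 0.05 (standard error) from day 0 to day 2, 0.37 ± 0.05 from day 0 to day 5, and -0.35 ± 0.05 from day 2 to day 5.

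FOXO3 has a near-identical copy, FOXO3B, annotated as a processed pseudogene on chromosome 17 (18670946 to 18672873). The counts of both were fractional, as arises when shared reads are divided between genes. The deposited length of FOXO3B, 9928 bases, is greater than this span, so its counts may include reads from other sequence. How many of its counts came from reads shared with FOXO3 was not tested. FOXO3B had 7.94 and 9.5 CPM in the day 0 libraries, 10.7 and 9.55 CPM in those of day 2 and 21.3 and 21.2 CPM in those of day 5, and was thus highest at day 5. It took 14.8% and 16.8% of the summed counts on day 0, 12.3% and 11.02% on day 2, and 26.3% and 25.9% on day 5. Summed, the copies reached 53.8 and 56.7 CPM before forskolin, 86.8 and 86.6 CPM by day 2, and 81.1 and 81.7 CPM by day 5. In a fit of the summed counts, an alternative chosen after seeing the data, the log2 fold change for FOXO3 was 0.65 from day 0 to day 2 and 0.56 from day 0 to day 5. From day 2 to day 5 it was -0.09 in place of -0.35, and it no longer passed the edgeR threshold (adjusted p = 0.095, range over all alternatives 1.94e-11 to 0.095). The size of the FOXO3 difference between day 2 and day 5 therefore depended on whether the copies were summed.

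**Figure D1:**
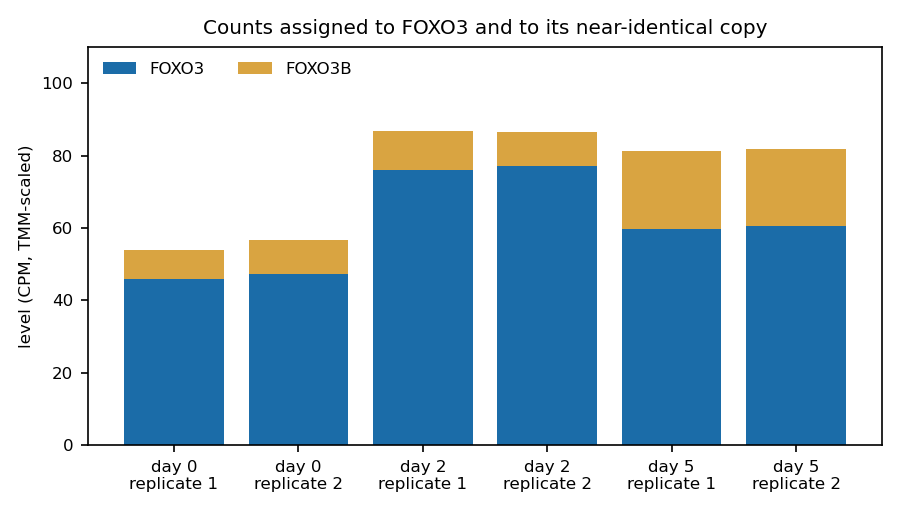
Level in CPM (vertical axis) assigned to FOXO3 and, stacked on it, to FOXO3B in each of the 6 libraries. The full bars reach 86.8 and 86.6 CPM on day 2 and 81.1 and 81.7 CPM on day 5, and the FOXO3B part is tallest on day 5.

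FOXO4 (ENSG00000184481; chromosome X, 71096197 to 71103535) had 7.13 and 7.35 CPM in the day 0 libraries, 9.95 and 10.4 CPM in those of day 2 and 16.4 and 17.02 CPM in those of day 5. Each day lay above the previous one. The log2 fold change of FOXO4 from day 0 was 0.49 ± 0.12 by day 2 and 1.204 ± 0.12 by day 5.

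FOXO1 (ENSG00000150907; chromosome 13, 40469953 to 40666597), the member best known from insulin action in liver, was counted 0 and 5 times in the day 0 libraries, 16 and 13 times in those of day 2 and 17 and 9 times in those of day 5. No library exceeded 1.02 CPM, and the count of 0 allows up to 0.118 CPM, a limit for counting error only. Both later days lay above day 0 and overlapped each other, and FOXO1 passed the filter only through them. Its log2 fold change from day 0 was 2.59 ± 0.86 by day 2 and 2.97 ± 0.86 by day 5. Without day 0 replicate 1 these became 1.703 and 2.08, and FOXO1 was no longer past the edgeR threshold. Without day 0 replicate 2, when only the library with 0 counts is left, they became 6.69 and 7.07, values that depend on the prior count of the fit. FOXO6, the remaining gene of the family, had 2 to 12 counts and was not tested.

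DEPP1 (ENSG00000165507; chromosome 10, 44970981 to 44978810), which encodes a small protein induced by FOXO factors and linked to autophagy, had the widest range of the 8 genes. It had 8.001 and 8.62 CPM in the day 0 libraries, 143 and 146 CPM in those of day 2 and 0.24 and 0.273 CPM in those of day 5. The day 5 libraries held only 4 and 5 counts, and the days were far apart. DEPP1 was 17.3-fold higher at day 2 than at day 0 (log2 fold change 4.12 ± 0.06). From day 2 to day 5 it was 551-fold lower (-9.11 ± 0.12), which left it 31.8-fold below day 0 (-4.99 ± 0.23). DEPP1 lies inside RASSF4 on the opposite strand, and whether counting used strand is not given in the sources used here. RASSF4 was counted 760 and 935 times on day 0, 879 and 1031 times on day 2, and 274 and 243 times on day 5, against 203 and 251, then 3436 and 3928, then 4 and 5 for DEPP1.

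TXNIP (ENSG00000265972; chromosome 1, 145992435 to 145996600) encodes a protein that binds thioredoxin and limits glucose uptake. It had 524 and 527 CPM in the day 0 libraries, 2684 and 2672 CPM in those of day 2 and 126 and 132 CPM in those of day 5. As for DEPP1, day 2 was highest and day 5 lowest, without overlap. TXNIP was 5.1-fold higher at day 2 than at day 0 (log2 fold change 2.35 ± 0.02), and at day 5 it was 20.8-fold below day 2 (-4.38 ± 0.02) and 4.09-fold below day 0 (-2.03 ± 0.02).

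SESN3 (ENSG00000149212; chromosome 11, 95165513 to 95232541), the sestrin, was also highest at day 2 but stayed above its first level. It had 15.6 and 15.97 CPM in the day 0 libraries, 33.5 and 33.4 CPM in those of day 2 and 23.01 and 20.5 CPM in those of day 5. Its log2 fold change from day 0 was 1.08 ± 0.08 by day 2 and 0.46 ± 0.09 by day 5, and -0.62 ± 0.08 between the later days. The antisense gene AP000787.1 spans SESN3 and had 13.1 to 32.8 counts, against 376 to 899 for SESN3.

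**Figure D2:**
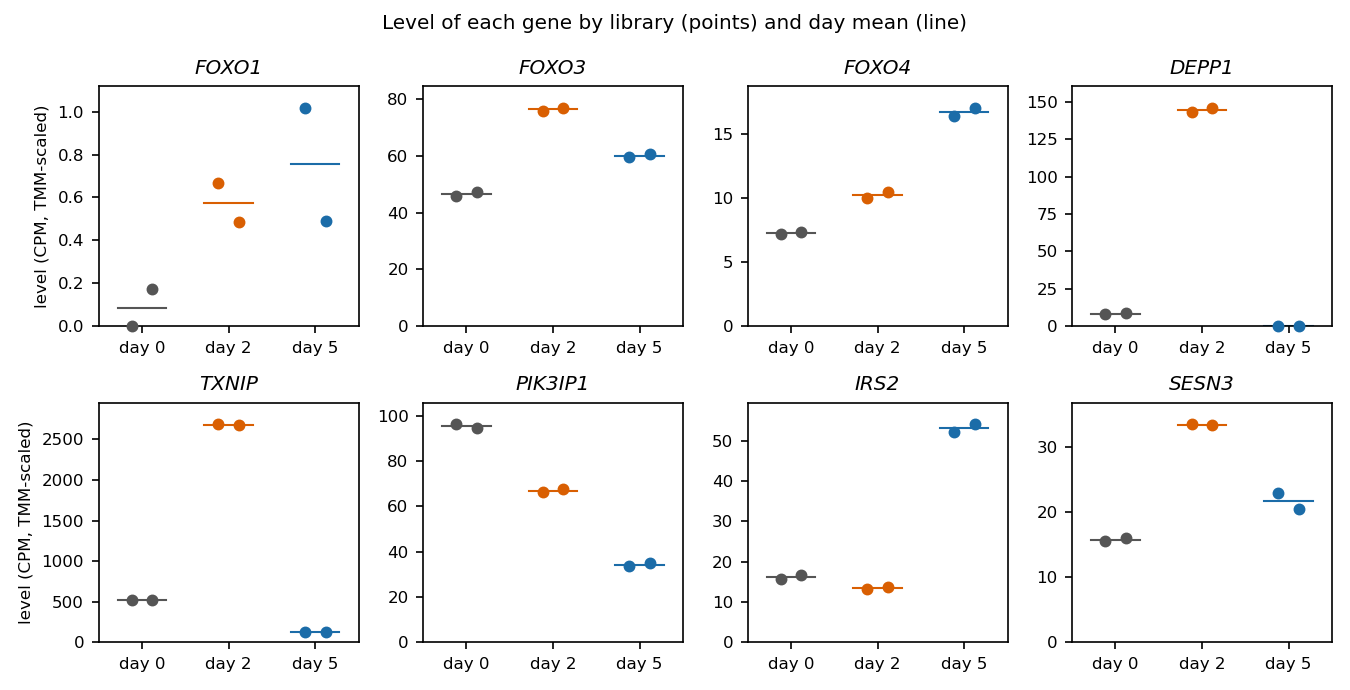
Level in CPM (vertical axes, linear from 0) of each gene in each library (points), with the mean of each day (lines). DEPP1, TXNIP, SESN3 and FOXO3 are highest on day 2, FOXO4 and IRS2 on day 5, and PIK3IP1 on day 0, while FOXO1 does not exceed 1.02 CPM.

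The genes that act on PI3K were at opposite ends of their ranges at day 5. PIK3IP1 (ENSG00000100100; chromosome 22, 31281593 to 31292534), the inhibitor, had 96.3 and 94.8 CPM in the day 0 libraries, 66.3 and 67.5 CPM in those of day 2 and 33.7 and 35.1 CPM in those of day 5. Each day lay below the previous one. The log2 fold change of PIK3IP1 from day 0 was -0.51 ± 0.04 by day 2 and -1.47 ± 0.05 by day 5. IRS2 (ENSG00000185950; chromosome 13, 109752698 to 109786568), the adaptor, had 15.8 and 16.6 CPM in the day 0 libraries, 13.3 and 13.8 CPM in those of day 2 and 52.3 and 54.1 CPM in those of day 5. It was slightly lower on day 2 and clearly highest on day 5. The log2 fold change of IRS2 was -0.26 ± 0.08 from day 0 to day 2, past the edgeR threshold with adjusted p = 0.0122 but not without day 0 replicate 2 (0.0795) or day 2 replicate 1 (0.0656), with a range over all alternatives of 0.000174 to 0.0795. IRS2 at day 5 was 3.28-fold above day 0 (1.71 ± 0.07) and 3.93-fold above day 2 (1.97 ± 0.08).

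In the edgeR fit, 8 of the 8 genes passed an adjusted p of 0.05 from day 0 to day 2, beside 66.8% of all 16327 tested genes, and for 8 the libraries of the days did not overlap, beside 82.7%. From day 0 to day 5, 8 passed beside 69.9%, and 8 did not overlap beside 84.4%. From day 2 to day 5, 7 passed beside 65.8%, and 7 did not overlap beside 82.4%, FOXO1 being the exception in both counts. Since the genes were chosen on these comparisons, nothing is read from the counts. The 5th to 95th percentiles of all tested genes spanned -1.65 to 1.79 from day 0 to day 2. DEPP1 and TXNIP exceeded that range, as did FOXO1, which had only 0 and 5 counts on day 0. Without day 0 replicate 1 the FOXO1 value was 1.703, below 1.79. From day 2 to day 5 the percentiles spanned -1.99 to 1.85, which DEPP1, TXNIP and IRS2 exceeded. With library totals in place of TMM factors the median of all tested genes was -0.18 from day 0 to day 2 and -0.16 from day 0 to day 5. Of all calls, 38.1% were then higher, in place of 50.01%, and 39.01% in place of 51.2%. The 8 genes kept their direction from day 0 under that scaling.

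**Figure D3:**
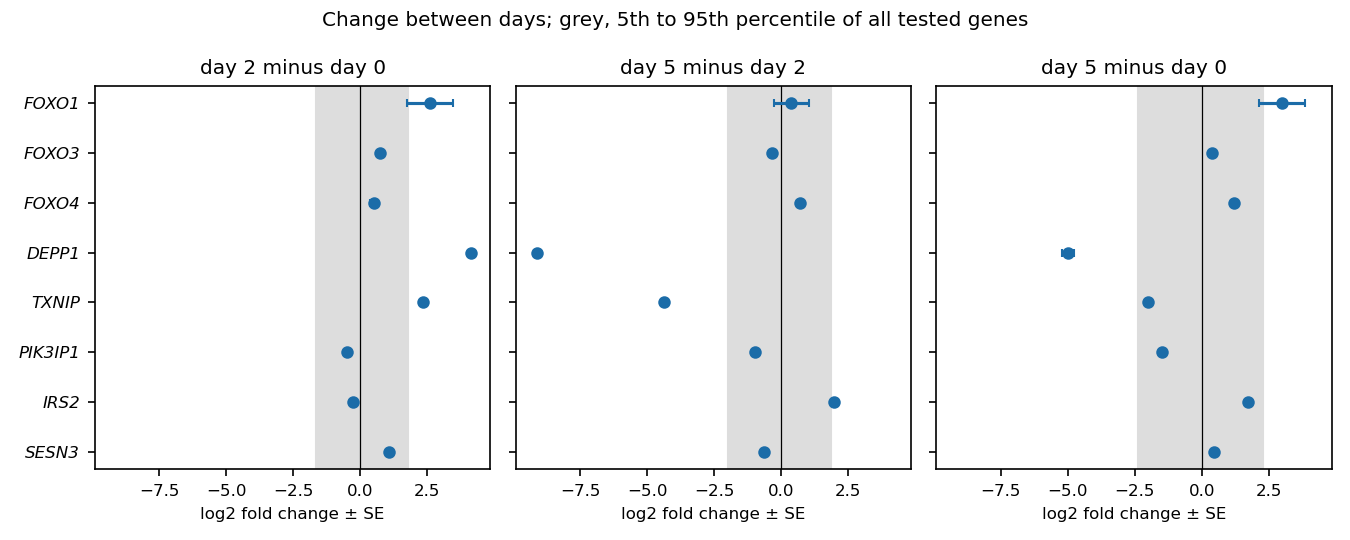
Log2 fold change with standard error (horizontal axis) of the 8 genes in the 3 comparisons, over the 5th to 95th percentile of all tested genes in grey. DEPP1 lies beyond the grey band in each comparison, at 4.12 (day 2 minus day 0), -4.99 (day 5 minus day 0) and -9.11 (day 5 minus day 2), whereas FOXO3, FOXO4, PIK3IP1 and SESN3 lie within it.

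Levels of different genes can be compared only per length, here as CPM per kilobase with the deposited gene lengths. On day 0 the order was TXNIP (181 CPM per kilobase), PIK3IP1 (39.5), FOXO3 (6.37), DEPP1 (3.92), FOXO4 (1.99), IRS2 (1.99), SESN3 (1.65) and FOXO1 (0.0149). FOXO4 and IRS2 overlapped, and the other neighbours did not. On day 2 DEPP1 was second, with 68.2 CPM per kilobase behind TXNIP with 922. By day 5 DEPP1 was last, with 0.121, and overlapped FOXO1 with 0.131, while TXNIP was still first with 44.2. FOXO3 had the highest level per kilobase of the FOXO genes on each day, with 8.25 on day 5 beside 4.58 for FOXO4.

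**Figure D4:**
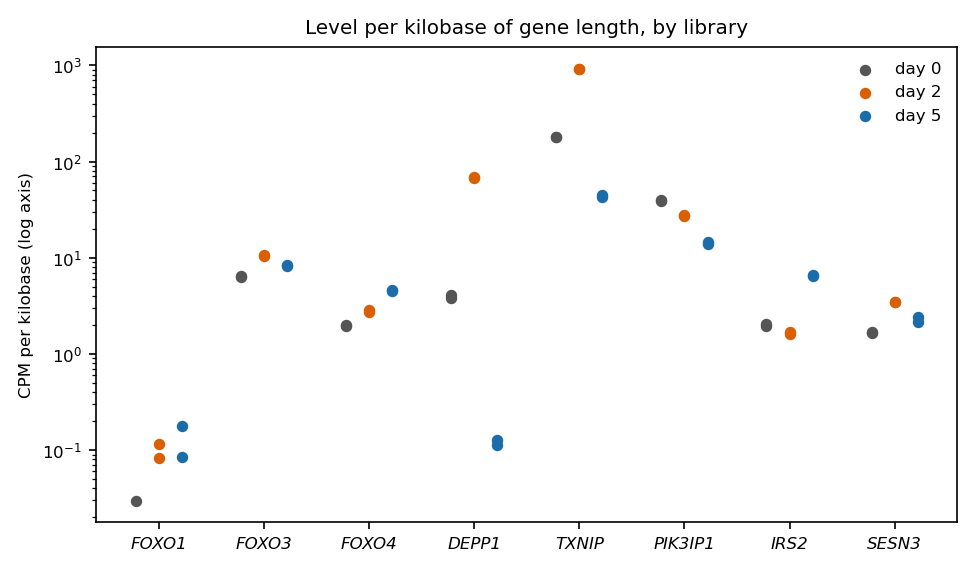
CPM per kilobase of gene length (log axis) of the 8 genes in each library, by day; the FOXO1 library with 0 counts is not drawn. DEPP1 goes from a mean of 68.2 on day 2 to 0.121 on day 5, and TXNIP is highest on each day.

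Likeness of course was measured as the distance between day means of log2 CPM, each gene centred on its own mean over the days, so that it rests on 3 points from 6 libraries. Among the 8 genes FOXO3 and SESN3 were closest (0.27) and DEPP1 and IRS2 farthest apart (7.604). DEPP1 and TXNIP, which share the order of days, were 3.09 apart. Among 10647 genes with a mean of 5 CPM or more, TXNIP was most like GDNF, a neurotrophic factor gene (distance 0.11), and FGD4 (0.23). GDNF had 15.1 ± 0.579 CPM (SD, n = 2), 84.6 ± 4.07 CPM and 3.63 ± 0.647 CPM on the successive days. DEPP1 had no close match, the nearest being SERPINB2 (1.85) and P2RY1 (2.13). IRS2 was most like the receptor kinase gene KIT (0.03) and SNAP25 (0.07), and PIK3IP1 like WDR1 (0.05) and YWHAH (0.05). FOXO3 was most like ZNF227 (0.0075) and RBM27 (0.011), FOXO4 like SASH1 (0.02) and AEBP2 (0.02), and SESN3 like ODR4 (0.0015) and CORO7 (0.017). FOXO1, at its few counts, was most like ARHGAP6 (0.03) and TNFRSF10D (0.05).

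Other reported FOXO targets, a list of 34 genes, were mostly higher at day 2. This list, like those below, was chosen with earlier results of these data known, so its counts are a description. Of 29 tested, 23 rose and 2 fell from day 0 to day 2 (edgeR), beside 33.4% of all tested genes higher and 33.4% lower, and the median log2 fold change was 0.88 beside 0.003. PDK4, a kinase that inhibits pyruvate dehydrogenase, went from 69.2 and 66.7 CPM to 2671 and 2643 CPM (5.29 ± 0.03). FBXO32, a ubiquitin ligase of muscle atrophy, rose from 7.42 ± 0.575 to 63.2 ± 0.856 CPM. BTG1, which restrains cell division, rose from 29.5 ± 1.55 to 185 ± 0.322 CPM. The insulin receptor gene INSR (1.09 ± 0.14), the cyclin gene CCNG2 (0.88 ± 0.07) and SESN1 (1.501 ± 0.08) rose as well. The genes that fell were GADD45A and KLF2, and BBC3, IGFBP1, PINK1 and TNFSF10 did not pass. IGFBP1 was near the detection limit on both days, with 0 and 5 counts on day 0 and 1 and 8 on day 2, but had 103 and 86 on day 5. GADD45A, a growth arrest and DNA damage gene, went from 102 ± 0.47 to 47.5 ± 1.81 CPM.

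By day 5 the same list had divided. From day 0 to day 5, 18 rose and 11 fell, beside 35.8% and 34.1% of all tested genes, with a median of 0.57 beside 0.04. BCL2L11, which encodes the proapoptotic protein BIM, had 2.3 ± 0.0418, 11.9 ± 0.822 and 41.1 ± 1.81 CPM on the successive days, and BTG1 reached 335 ± 11.99 CPM. PDK4 had 509.6 ± 11.4 CPM, below day 2 and above day 0. The superoxide dismutase gene SOD2 had 394 ± 3.8, 1840.5 ± 8.76 and 212 ± 9.37 CPM. The transcriptional regulator gene CITED2 had 184 ± 4.11, 328 ± 11.4 and 37.6 ± 3.43 CPM, and the cell cycle inhibitor gene CDKN1A 1504 ± 26.8, 3640.04 ± 53.4 and 733 ± 10.6 CPM. Like DEPP1 and TXNIP, the genes SOD2, CITED2 and CDKN1A were highest on day 2 and lowest on day 5. From day 2 to day 5, 7 rose and 19 fell, beside 32.1% and 33.7%, with a median of -0.49 beside 0.007. The comparisons share libraries.

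**Figure D5:**
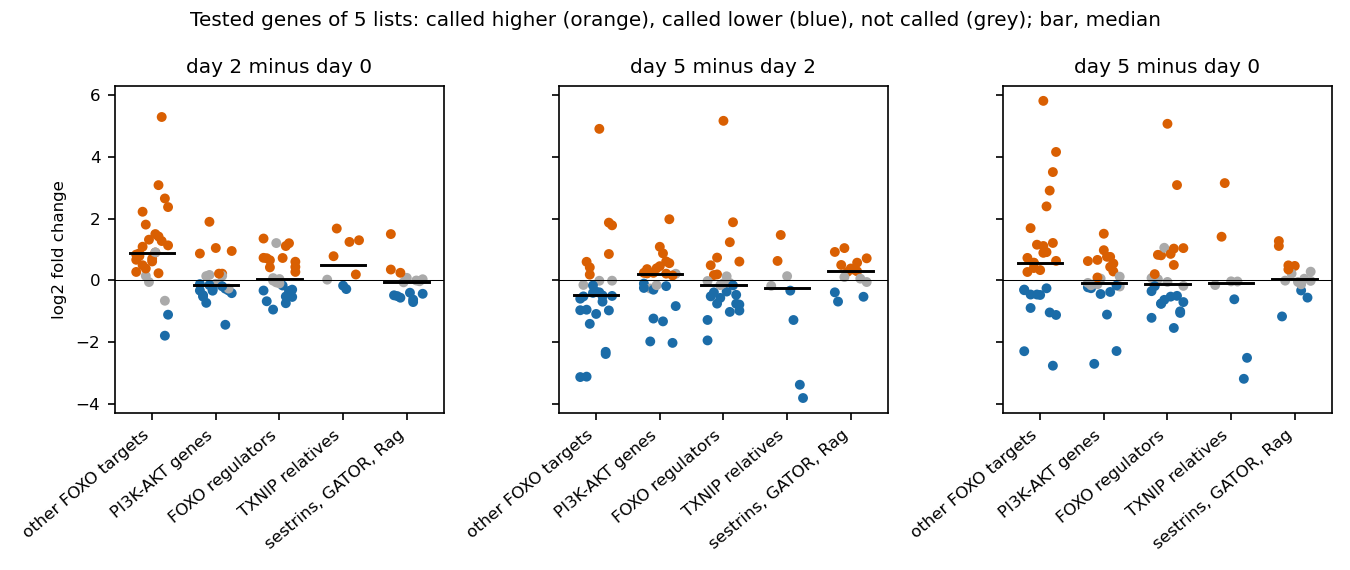
Log2 fold change (vertical axis) of the tested genes of each list in the 3 comparisons, with the list medians as bars. From left to right, the medians are 0.88, -0.49 and 0.57 for the other FOXO targets and -0.15, 0.22 and -0.08 for the PI3K-AKT genes.

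Of 25 tested genes of the PI3K-AKT pathway upstream of FOXO, 6 rose and 13 fell from day 0 to day 2 (median -0.15), or 24% higher and 52% lower, beside 33.4% and 33.4% of all tested genes. From day 0 to day 5, 10 rose and 8 fell (median -0.08), or 8 and 14 with library totals. With TMM factors the shares of the list were 40% higher and 32% lower, near the 35.8% and 34.1% of all tested genes. IRS1, the relative of IRS2, rose on both later days, with 119.8 ± 5.31, 248 ± 3.47 and 342 ± 10.5 CPM. Of the kinase genes that act on FOXO proteins, AKT1 had log2 fold changes from day 0 of -0.12 ± 0.03 and -0.22 ± 0.03, and AKT2 of 0.22 ± 0.04 and 0.44 ± 0.04. With library totals the day 2 value of AKT2 was 0.03 and did not pass (adjusted p = 0.419 in edgeR, range over its alternatives 5.94e-08 to 0.419). PIK3CD, a catalytic subunit gene of PI3K, fell from 26.9 ± 0.276 CPM on day 0 to 4.12 ± 0.574 CPM on day 5. Of the regulatory subunit genes, PIK3R1 rose by day 5 (0.98 ± 0.10), and PIK3R3 fell by day 2 (-1.44 ± 0.09) and rose from day 2 to day 5 (1.98 ± 0.09). The IGF receptor gene IGF1R rose by day 5 (0.76 ± 0.05).

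Of 26 tested genes whose proteins modify, bind or move FOXO factors, 11 rose and 9 fell from day 0 to day 2, and 9 rose and 12 fell from day 0 to day 5. These are 42.3% higher and 34.6% lower at day 2, beside 33.4% and 33.4% of all tested genes, and 34.6% higher and 46.2% lower at day 5, beside 35.8% and 34.1%. SGK1, a kinase that phosphorylates FOXO proteins as AKT does, rose from 25.7 ± 2.61 to 59.1 ± 0.488 and 218 ± 5.68 CPM. Its relative SGK3 was above day 0 at day 2 (0.73 ± 0.15) and below day 0 at day 5 (-1.21 ± 0.19). PPARGC1A, a coactivator of FOXO1 in liver, had 1.54 and 1.13 CPM in the day 0 libraries, 1.29 and 1.19 CPM in those of day 2 and 44.05 and 45.2 CPM in those of day 5. Of the deacetylase genes, SIRT1 rose by day 2 (1.11 ± 0.12) and SIRT2 fell (-0.94 ± 0.06). YWHAH, an adaptor that holds phosphorylated FOXO proteins in the cytoplasm, fell from 104 ± 3.004 to 72.9 ± 3.47 and 35.95 ± 1.7 CPM.

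Of 8 tested relatives and partners of TXNIP, 5 rose (ARRDC2, ARRDC3, ARRDC4, MLXIP and TXN) and 2 fell (MLX and TXN2) from day 0 to day 2. From day 0 to day 5, 2 rose (ARRDC3 and MLXIP) and 3 fell (ARRDC4, MLX and TXN). Called genes made up 87.5% of the list at day 2, beside 66.8% of all tested genes, and 62.5% at day 5, beside 69.9%. ARRDC4, an arrestin-domain gene controlled by MondoA as TXNIP is, had the order of days of TXNIP, with 40.2 and 39.7 CPM in the day 0 libraries, 97.6 and 99.2 CPM in those of day 2 and 7.55 and 6.55 CPM in those of day 5. ARRDC3 rose throughout, with 12.7 ± 0.371, 40.8 ± 1.81 and 113 ± 1.41 CPM. MLXIP, which encodes MondoA, was highest on day 5, with log2 fold changes from day 0 of 0.78 ± 0.04 and 1.41 ± 0.04. Thioredoxin itself, TXN, had 449 and 454 CPM in the day 0 libraries, 521 and 510.5 CPM in those of day 2 and 49.4 and 49.8 CPM in those of day 5, and its day 2 log2 fold change of 0.19 was 0.008 with library totals (adjusted p = 0.787 in edgeR, range over its alternatives 7.82e-11 to 0.787).

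Of 15 tested sestrin, GATOR and Rag genes, 3 rose (CASTOR1, SESN1 and WDR24) and 7 fell from day 0 to day 2, with 1 higher when library totals were used. From day 0 to day 5, 5 rose (CASTOR1, DEPDC5, RRAGB, SESN1 and WDR24) and 3 fell (CASTOR2, RRAGA and RRAGC), or 3 and 8 with library totals. The shares of the list were 20% higher and 46.7% lower at day 2, beside 33.4% and 33.4% of all tested genes, and 33.3% higher and 20% lower at day 5 beside 35.8% and 34.1%. SESN1, which is also on the target list, had 14.5 ± 0.328, 41.2 ± 2.39 and 31.5 ± 1.31 CPM, with the highest level on day 2 as for SESN3. SESN2 had 44.02 ± 1.61, 27.1 ± 0.381 and 40.3 ± 3.1 CPM, with its lowest level on the day when SESN1 and SESN3 were highest.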

How the data were processed

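Expected counts per gene, deposited by the authors, were available for 6 libraries; 87.2% of the values are whole and they are not scaled between libraries, judging by the values. The deposited means per day were not used. Reads were processed on GRCh38 according to the submitters' processing notes; aligner, counter, annotation release and strand are not given in the sources used here. Unnamed genes (172, at most 0.0475% of a library) were left out. Where a symbol had several genes, that with most counts was taken.

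Counts were rounded and fitted by day over all libraries with edgeR 4.0.16 in R 4.3.3 (TMM factors, filterByExpr with count 10 and total 15, quasi-likelihood test, Benjamini-Hochberg over 16327 genes, threshold 0.05). Standard errors are the absolute log2 fold change over the square root of F. The fit was tested on simulated data. Values after ± beside CPM are SD (n = 2).

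The 8 genes and the lists were chosen with earlier results of these data known. Named from each list were the 3 largest called changes per direction and comparison (mean of at least 5 CPM, days not overlapping) and 15 further genes of the family and lists; not all are printed, and some are not reported here. Genes that make up a count of 5 or fewer are named outside this rule. Coordinates are from GENCODE 29. Alternatives were DESeq2 1.42.0, limma-voom 3.58.1, other scalings and filters, fits of the compared days only, a replicate block, and leaving out each library.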

Additional observations from a re-analysis of the deposited data

How the results depend on the processing

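Against the 3 comparisons with TMM factors, 562 counts of called genes stayed within 1.5 times over all alternatives and 14 did not, and no called value changed sign. Named genes of the lists lost a call 44 times over these alternatives, AKT2 and TXN with library totals among them. Log2 fold changes of the 8 genes moved by at least the spread of replicate libraries 32 times, and 3 times more with the FOXO3 copies summed. With library totals, sestrin and GATOR genes called higher numbered 1 in place of 3 from day 0 to day 2 and 3 in place of 5 from day 0 to day 5. From day 0 to day 5, those called lower numbered 8 in place of 3, PI3K-AKT genes called lower 14 in place of 8, and TXNIP relatives called lower 5 in place of 3; that scaling moves the median of all genes. With DESeq2, sestrin and GATOR genes higher from day 0 to day 2 numbered 1, and without a count filter those lower from day 0 to day 5 numbered 5; the cause was not tested. Leaving out 1 library gave 1 to 3 sestrin and GATOR genes higher, 1 to 2 TXNIP relatives lower and 1 to 2 of the 8 genes lower from day 0 to day 2, with fewer samples in the fit; the lowest values came without day 0 replicate 1 or day 2 replicate 1 (sestrin and GATOR genes), and without day 0 replicate 2 or day 2 replicate 1 (the 8 genes and, also without day 2 replicate 2, TXNIP relatives). FOXO1 also lost its calls without day 2 replicate 1 (from day 0 to day 2) and day 5 replicate 1 (from day 0 to day 5), and was not tested under a filter of 1 CPM in 4 libraries.

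Whether replicate numbers pair the libraries across days is not stated. The correlations of same-numbered deviations were 0.05, 0.03 and 0.05, which cannot show how the cultures were laid out. With a replicate block, 5408 genes in place of 5457 were called higher from day 0 to day 2, and the counts of the 8 genes were the same in all comparisons.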

Other observations

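The deposited table annotates genes with KEGG pathways, and its FoxO signaling pathway was examined after the table was seen. It held 134 protein-coding genes beside those chosen, 48 of them also on the lists above, so its counts partly repeat those of the lists. Of 114 tested, 56 rose and 40 fell from day 0 to day 2 (median log2 fold change 0.22), 52 rose and 45 fell from day 0 to day 5 (0.06), and 40 rose and 51 fell from day 2 to day 5 (-0.12). The medians of all tested genes were 0.003, 0.04 and 0.007. In the same order, the shares of the pathway were 49.1% higher and 35.1% lower, beside 33.4% and 33.4% of all tested genes, 45.6% higher and 39.5% lower beside 35.8% and 34.1%, and 35.1% higher and 44.7% lower beside 32.1% and 33.7%. The genes that follow were named after their values were seen. PLK2, a polo-family kinase gene, rose from 164 ± 2.04 to 507 ± 5.35 and 966 ± 8.61 CPM. CCND1, a D cyclin gene that FOXO factors are known to repress, fell from 2805 ± 30.8 CPM on day 0 to 450.1 ± 8.21 CPM on day 5. The ligand gene TGFB3 rose from 1.06 ± 0.233 to 39.1 ± 0.391 CPM. PRKAA2, a catalytic subunit gene of AMPK, rose from 5.38 ± 0.359 to 28.01 ± 0.649 CPM.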
